A study of Oryza sativa with 10 samples.

Results

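The genes described here are 10 rice genes of phosphate uptake and phosphate-starvation signalling, chosen by identifier. They are the transporters PT1, PT2, PT4, PT6 and PT8, the exporter PHO1;2, the sensors SPX1 and SPX2, the transcription factor PHR2 and the ubiquitin-conjugating enzyme PHO2. They are 10 of the 38978 genes counted in the files, and 9 of them passed the filter on low counts that left 28189 genes for testing. PT6 did not pass it. The gene names come with the list of identifiers, because the files give identifiers alone and the reference table used here pairs none of the 10 with a name.

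RNA of rice (Oryza sativa) tissue labelled root was sequenced from plants 42 days old, of 2 lines, S13, which the labels call salt tolerant, and S3, which they call susceptible. After 30 days without added salt, plants had either 12 days in 140 mM NaCl (S13 salt and S3 salt, 3 libraries each) or 12 more days at 0 mM (S13 control and S3 control, 2 libraries each), and no group has a transgene or mutation in the labels. The labels do not state the phosphate supply, nor whether libraries of a group are separate plants, so p-values measure the spread between libraries, which may be technical. Library totals were 22938524 to 25703942 counts, and 1 count corresponds to between 0.0305 and 0.0578 CPM. CPM here is the count scaled for depth by the library total times a TMM factor. That factor is meant to correct for differences in RNA composition and takes most genes as unchanged, which was not tested. No root marker gene is named in the files. Of 7 plastid photosynthesis genes listed as a sign of green tissue 6 are named there, none at 0, and together they had 78.7 to 175 CPM in S13 controls, 68.0 to 173 in S13 salt, 108 to 129 in S3 controls and 152 to 255 in S3 salt libraries. Their part in the results was not tested. In RNA of a whole tissue, fewer cells of a type and less RNA per cell cannot be told apart.

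Plants take up inorganic phosphate from the soil through proton-coupled symporters of the PHT1 family in the root plasma membrane, to which the PT genes belong, and load it into the xylem through PHO1-type exporters. PHR2 is a MYB-type transcription factor that switches on phosphate-starvation genes. When phosphate is plentiful, SPX1 and SPX2 bind PHR2 and hold it inactive, and both SPX genes are themselves targets of PHR2 in starved rice roots. PHO2 promotes breakdown of phosphate transporters and is kept low in starvation by the microRNA miR399.

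Under salt PT1 was higher in both lines, by 3.77-fold in S13 and 6.63-fold in S3, and PT2 was higher in S3 by 4.07-fold. PT4 went the other way and was 2.56-fold lower in S13. These were the 4 calls among the 9 tested genes. Most reads counted for PT2 and PT4 also overlapped a gene annotated on the opposite strand (given below), so their calls cannot be assigned to 1 strand. A call means an adjusted p (Benjamini-Hochberg, over all genes tested) under 0.05 in edgeR's quasi-likelihood test. In S13, 1 of 9 was called higher and 1 of 9 lower, where 12.8% and 14.2% of all tested genes were. In S3, 2 of 9 were called higher against 14.4% of all genes, and 0 of 9 lower against 18.4%. DESeq2 and limma-voom each called 2 of these genes in S3, PT1 and PT2, both higher. In either direction they called 10667 of 31064 and 9759 of 28189 genes. With library totals in place of TMM scaling, 3 of the 9 were called lower in S3, against 36.9% of all genes. At an unadjusted p under 0.05 in S3 there were 3 of the 9 in edgeR, all higher, and 12664 of the 28189 tested genes. With 9 genes these shares are near the background, and the results below are about single genes.

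**Figure D1:**
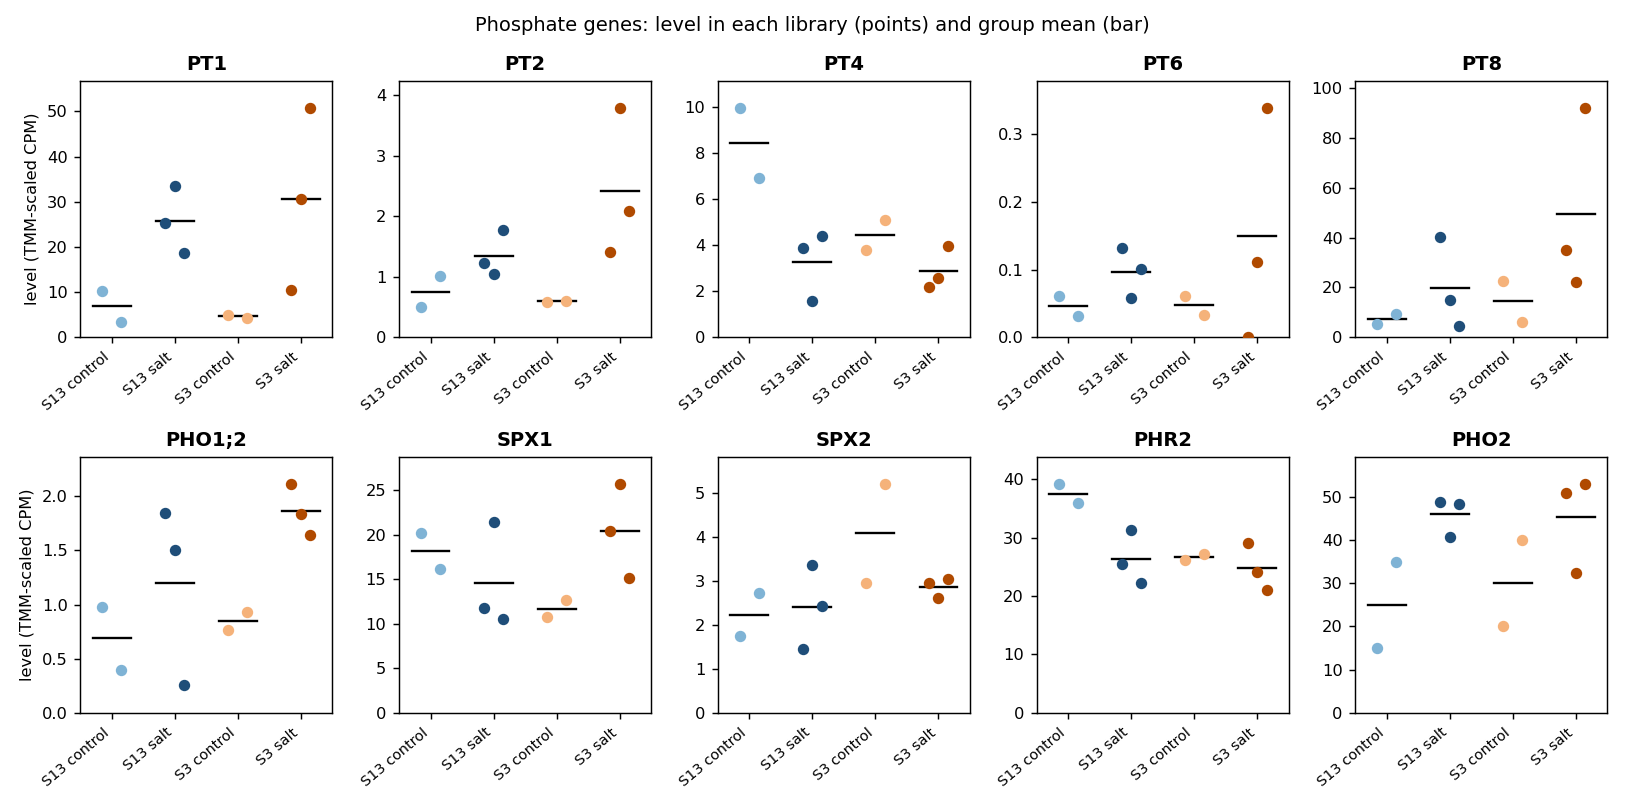
Level of each gene in each library (points, TMM-scaled CPM, a separate linear axis from 0 for each gene) with the group mean (bar), by line and treatment. PT1 lies between 10.47 and 50.6 CPM in all salt libraries and between 3.36 and 10.3 in all controls, while PT4 is highest in the S13 controls.

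PT1 (Os03g0150600, chromosome 3, 2807616 to 2809540 of IRGSP-1.0, minus strand) is a transporter known for phosphate uptake and transport to the shoot in phosphate-replete rice. Its level was 10.3 and 3.36 CPM in the S13 controls and 25.3, 33.5 and 18.5 in the S13 salt libraries. In S3 it was 4.95 and 4.27 CPM in the controls and 10.47, 30.6 and 50.6 under salt. Every salt library was above both controls of its line, although the S3 salt libraries differed 4.84-fold among themselves and the S13 controls 3.06-fold. The log2 fold change was 1.92 ± 0.64 (SE) in S13 (adjusted p = 0.0463, edgeR) and 2.73 ± 0.66 in S3 (adjusted p = 0.0116). The test of the difference between these responses did not pass (log2 difference of S13 minus S3 -0.81, 95% interval -2.67 to 1.05, adjusted p = 0.820).

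The S13 call of PT1 was at the edge of the threshold. Leaving out 1 library ended it in 7 of 10 cases, at log2 fold changes of 2.94 and 1.32 without the first and second S13 control, 1.92 and 1.68 without the first and second S13 salt library, 1.91 without either S3 control and 1.92 without the second S3 salt library. With 1 salt library left out, 6016 to 7748 of all genes were called in S13, against 7627 in the main fit. Leaving out a control leaves 1 library in its group, a limit that holds for every gene. Why the call ended was not tested. In S3 the call of PT1 ended without either S3 control (2.84 and 2.63).

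PT2 (Os03g0150800, chromosome 3, 2815502 to 2817322, minus strand) is a low-affinity transporter known for moving phosphate to the shoot. It lies 5961 bp beyond PT1, with 1 annotated gene between them. Its level was low, with 0.489 and 1.01 CPM in the S13 controls, 1.23, 1.04 and 1.77 in S13 salt, 0.580 and 0.600 in the S3 controls and 1.41, 3.78 and 2.08 in S3 salt. The libraries of control and salt did not overlap in either line, but in S13 the nearest values, 1.01 and 1.04, were nearly equal. The log2 fold change was 0.84 ± 0.56 (SE) in S13 (95% interval -0.39 to 2.08, adjusted p = 0.279) and 2.02 ± 0.58 in S3 (adjusted p = 0.0231). The S3 call ended without the first or second S3 control (2.00 and 2.05) and when the second S3 salt library was dropped (1.56). It also ended with library totals in place of TMM scaling (1.28, adjusted p = 0.0941, edgeR). Without the second S3 salt library 5965 of all genes were called in S3, against 9237 in the main fit. Leaving out a control leaves 1 library in its group. The difference between the lines was not called (log2 -1.18, 95% interval -2.90 to 0.54, adjusted p = 0.683).

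PT4 (Os04g0186400, chromosome 4, 5846286 to 5849272, plus strand) is a transporter of the same family with a part in phosphate uptake. The S13 controls had 9.93 and 6.91 CPM and the S13 salt libraries 3.87, 1.56 and 4.396. In S3 the controls had 3.79 and 5.07 CPM and the salt libraries 2.16, 2.56 and 3.96. The S13 groups did not overlap, whereas in S3 the third salt library lay above the lower control. The log2 fold change was -1.36 ± 0.45 (SE) in S13 (adjusted p = 0.0462, edgeR) and -0.61 ± 0.46 in S3 (95% interval -1.62 to 0.39, adjusted p = 0.321), and the difference of -0.74 (95% interval -2.18 to 0.69) was not called (adjusted p = 0.770). Leaving out 1 library ended the S13 call in 8 of 10 cases. The values were -1.07 and -1.60 without the first and second S13 control, -1.49 and -1.03 without the first and second S13 salt library, and -1.36 without either S3 control or the first or second S3 salt library. Calls over all genes without a salt library, and the limit of fits without a control, are given above for PT1.

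PT8 (Os10g0444700, chromosome 10, 16035405 to 16038231, minus strand), a high-affinity transporter of the root, had the widest range within a group among the tested genes. It had 5.44 and 9.29 CPM in the S13 controls and 40.2, 15.1 and 4.396 in S13 salt, a 9.14-fold range within the latter. The S3 controls had 22.7 and 5.97 CPM and the S3 salt libraries 34.8, 22.1 and 91.9. Salt and control overlapped in both lines. The log2 fold changes of 1.43 ± 0.89 and 1.79 ± 0.90 (SE) did not pass (95% intervals -0.53 to 3.40 and -0.20 to 3.77, adjusted p = 0.248 and 0.147, edgeR). With 1 library left out the S13 value of PT8 ran from 0.38, without the first salt library, to 1.91, without the third. The S3 value ran from 0.99, without the third salt library, to 3.05, without the first control.

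PT6 (Os08g0564000, chromosome 8, 28244202 to 28246028, plus strand), a high-affinity transporter known to rise when rice is short of phosphate, was close to undetected. It had 2 and 1 counts in the S13 controls, 3, 1 and 2 in S13 salt, 2 and 1 in the S3 controls and 0, 2 and 7 in S3 salt. A floor of 3 counts corresponds to between 0.0916 and 0.173 CPM in a library, and 1 library, the third of S3 salt with 0.338 CPM, stood above it. No fold change is given for it.

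Because the level of each gene depends on how libraries are scaled, the make-up of the transporter transcripts was also looked at within each library, where scaling cancels. These shares and the ratios below were chosen after the levels had been seen and carry no test. Counts per kb of exon were summed over the 5 transporters. PT1 held 48.6% and 21.5% of the sum in the S13 controls and 43.5%, 71.9% and 69.9% in S13 salt, so the groups overlapped. PT4 held 30.2% and 28.5% in the S13 controls and 4.28%, 2.16% and 10.7% under salt, and in S3 its share went from 9.97% and 26.1% to 3.62%, 3.15% and 2.09%. The share of PT4 was thus lower in every salt library than in any control of its line, in S3 as in S13. A share also falls when the other transporters rise, and in S3 the level of PT4 itself overlapped between salt and control. PT8 held between 12.0% and 67.0% in single libraries with no separation by salt, and PT2 and PT6 held at most 7.64% and 0.401%.

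**Figure D2:**
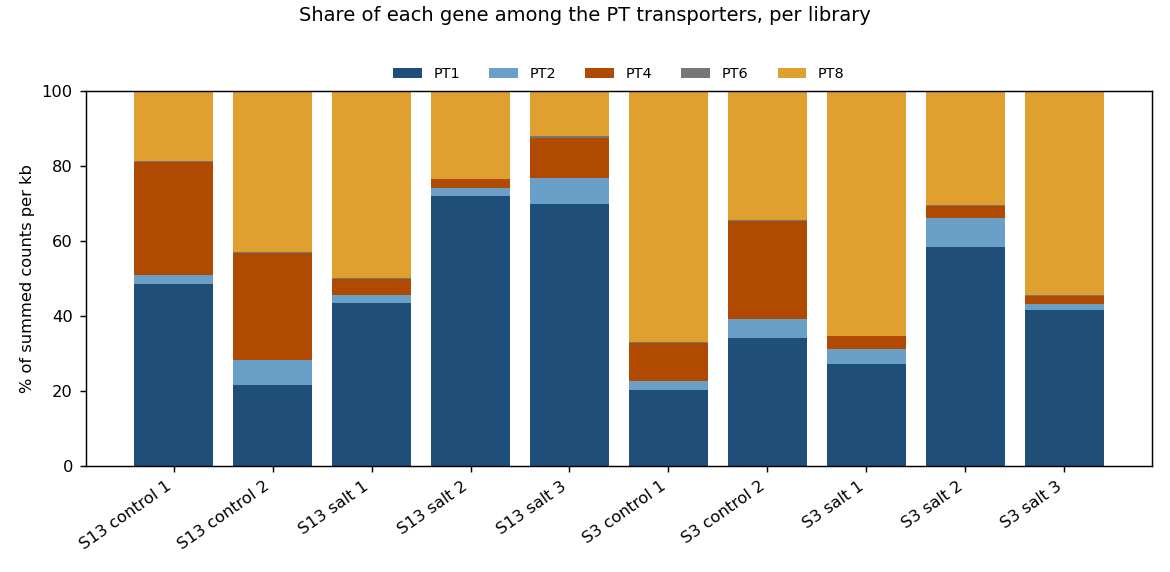
Share of each PT gene in the summed counts per kb of exon of the 5 transporters (percent, stacked to 100), 1 bar per library, named by line, treatment and replicate. PT4 makes up 9.97% to 30.2% in the controls and 2.09% to 10.7% in the salt libraries, and PT1 and PT8 together make up most of the rest.

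Summed over the 5 transporters, the level per kb was 11.02 and 8.11 CPM per kb in the S13 controls and 30.3, 24.2 and 13.8 under salt. In S3 it was 12.7 and 6.50 in the controls and 19.99, 27.2 and 63.4 under salt. Both lines had every salt library above the controls on the TMM scale, but not with library totals. There the third S13 salt library, at 10.6, was below both S13 controls (14.7 and 10.96), and the first S3 salt library, at 17.7, was below the first S3 control (18.1). The third S3 salt library had the highest sum and also the highest levels of PT1, PT6 and PT8.

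PHO1;2 (Os02g0809800, chromosome 2, 34609725 to 34615015, plus strand), which loads phosphate into the root xylem, had few counts, between 5 and 45 in a library. Its level was 0.978 and 0.397 CPM in the S13 controls and 1.85, 1.503 and 0.253 in S13 salt. The S3 controls had 0.763 and 0.933 CPM and the S3 salt libraries 2.11, 1.83 and 1.64. Salt lay above control in S3, with a log2 fold change of 1.13 ± 0.71 (SE) that did not pass (95% interval -0.44 to 2.70, adjusted p = 0.240, edgeR). In S13 the third salt library was below both controls, and the log2 fold change was 0.80 ± 0.72 (adjusted p = 0.424).

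SPX1 (Os06g0603600, chromosome 6, 23875437 to 23879965, minus strand), the sensor whose transcript is widely used as a sign of phosphate starvation, differed in sign between the lines. The S13 controls had 20.2 and 16.2 CPM and the S13 salt libraries 11.7, 21.4 and 10.6, which overlap. The S3 controls had 10.8 and 12.6 CPM and the S3 salt libraries 20.4, 25.66 and 15.1, all of them above the controls. The log2 fold change was -0.32 ± 0.35 (SE) in S13 (adjusted p = 0.516) and 0.80 ± 0.36 in S3 (95% interval 0.01 to 1.59, adjusted p = 0.109), and neither passed. The log2 difference of the responses was -1.12 ± 0.50 (95% interval -2.22 to -0.02), and after adjustment over all genes it did not pass (adjusted p = 0.566, edgeR). Without the second S13 salt library, the one that had 21.4 CPM, the S3 response of SPX1 passed (0.80, adjusted p = 0.0412, edgeR). It passed with no other library left out, and in that fit 11131 of all genes were called in S3, against 9237 in the main fit. With library totals in place of TMM scaling the S3 value was 0.077 (adjusted p = 0.874, edgeR), and the S3 salt and control libraries overlapped.

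SPX2 (Os02g0202200, chromosome 2, 5706636 to 5709119, plus strand), the related sensor, had 1.74 and 2.72 CPM in the S13 controls, 1.45, 3.35 and 2.43 in S13 salt, 2.96 and 5.20 in the S3 controls and 2.96, 2.61 and 3.04 in S3 salt. Salt and control overlapped in both lines. The log2 fold changes were 0.11 ± 0.44 and -0.51 ± 0.43 (SE), with adjusted p = 0.881 and 0.389 in edgeR, and the S13 value was -0.67 with library totals. Per kb of exon SPX1 was above SPX2 in every group, at 13.1 against 1.73 CPM per kb in S13 controls and 14.7 against 2.23 in S3 salt.

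PHR2 (Os07g0438800, chromosome 7, 14753753 to 14759288, plus strand), the activator, varied at most 1.41-fold within a group. It had 39.1 and 35.9 CPM in the S13 controls and 25.5, 31.3 and 22.2 in S13 salt, with no overlap, and a log2 fold change of -0.51 ± 0.24 (SE) that did not pass (95% interval -1.05 to 0.02, adjusted p = 0.138, edgeR). In S3 it had 26.2 and 27.2 CPM in the controls and 29.0, 24.2 and 21.0 under salt, a log2 fold change of -0.11 ± 0.24 with a 95% interval of -0.65 to 0.43. PHO2 (Os05g0557700, chromosome 5, 27740218 to 27749525, minus strand) had 14.98 and 34.8 CPM in the S13 controls and 48.8, 40.7 and 48.4 in S13 salt. In S3 it had 20.03 and 39.9 CPM in the controls and 50.8, 32.3 and 52.9 under salt. The S13 groups of PHO2 did not overlap and the S3 groups did, and the log2 fold changes of 0.88 ± 0.41 and 0.60 ± 0.40 (SE) did not pass (adjusted p = 0.128 and 0.274). In S3 the PHO2 value was -0.0745 with library totals.

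**Figure D3:**
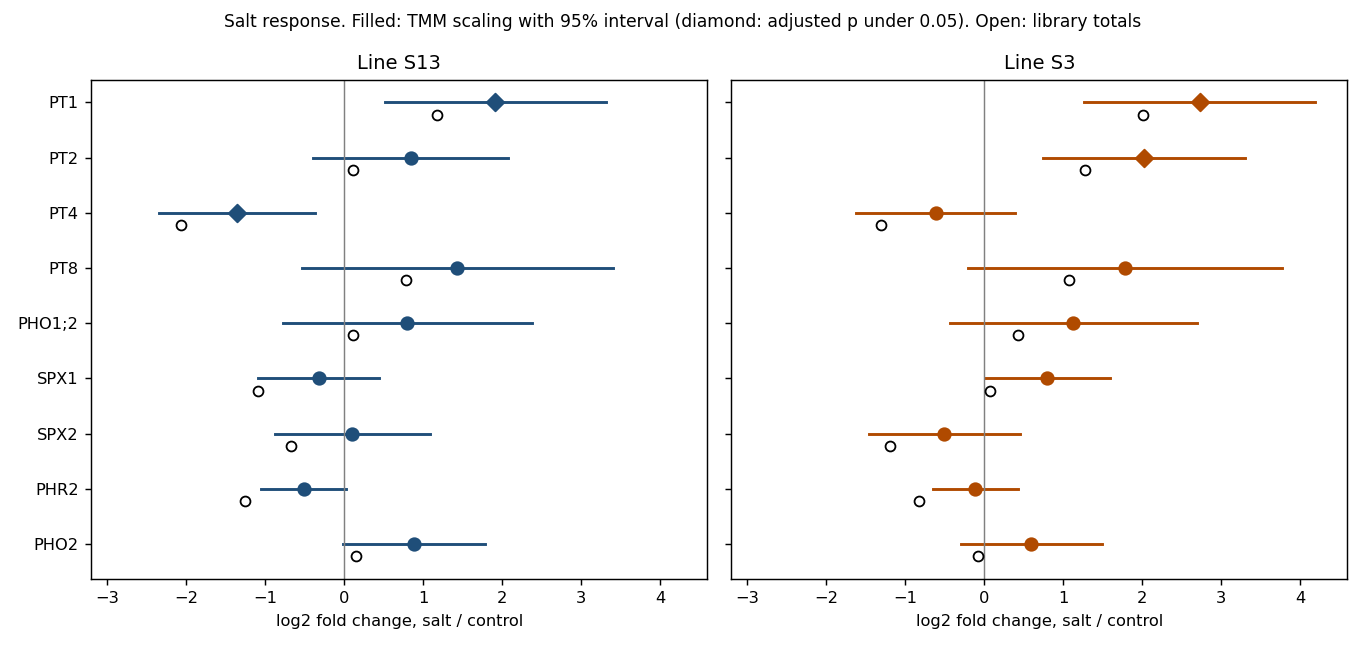
Log2 fold change of salt over control for the 9 tested genes in S13 (left) and S3 (right), from edgeR with TMM scaling (filled, with 95% interval; diamonds have an adjusted p under 0.05) and with library totals (open circles, no interval drawn). PT1 lies to the right of 0 and PT4 to the left in both lines and with both scalings, and the open circles lie to the left of the filled points throughout.

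The scaling between libraries decided part of these calls. Control libraries had TMM factors of 1.31 to 1.42 and salt libraries 0.729 to 0.922. With library totals alone, the median response over all genes (log2) was -0.76 in S13 and -0.77 in S3, against -0.03 and -0.06 with TMM. With totals, 0 of the 9 genes were called higher in S13, against 4.88% of all genes, and 3 lower (PT4, SPX1 and PHR2), against 35.5%. In S3, 1 was called higher (PT1), against 5.8%, and 3 lower (PT4, SPX2 and PHR2), against 36.9%. PT1 was above 0 with either scaling, at 1.18 and 2.01 with totals in S13 and S3 (edgeR adjusted p = 0.138 and 0.0237), and PT4 was below 0 with either, at -2.06 and -1.31 (adjusted p = 0.00695 and 0.0472). PHR2 was at -1.25 and -0.82 with totals (adjusted p = 0.00455 and 0.0293), which is -0.49 and -0.05 relative to the median of all genes. SPX1 was at -1.08 in S13 with totals (adjusted p = 0.0213), or -0.32 relative to that median, and SPX2 at -1.19 in S3 (adjusted p = 0.0397), or -0.43.

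Counted by separation of libraries on the TMM scale, 3 of the 9 genes had every S13 salt library above both S13 controls (PT1, PT2 and PHO2), and 25.8% of all tested genes did. In S13, 2 had every salt library below (PHR2 and PT4), and 31.8% of all genes did. In S3, 4 were separated upward (PT1, PT2, PHO1;2 and SPX1) against 28.2% of all genes, and 0 downward against 33.6%. With library totals the balance was different. In S13, 1 gene was separated upward (PT1) and 3 downward (PT4, SPX1 and PHR2), against 9.86% and 55.8% of all genes. In S3, 3 were separated upward (PT1, PT2 and PHO1;2) and 3 downward (PT4, SPX2 and PHR2), against 12.7% and 53.6%. The median log2 fold change of the 9 genes was 0.80 in each line, beside -0.03 and -0.06 for all tested genes. With library totals it was 0.11 and 0.077, beside -0.76 and -0.77.

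Ratios of a pair of genes within a library, which no scaling can move, were taken for 7 pairs in both lines, and salt and control did not overlap in 6 of these 14 cases. The share over all gene pairs was not computed, so this count has no background of its own. Of single genes on the TMM scale, 25.8% were separated upward and 31.8% downward in S13, and 28.2% and 33.6% in S3. PT1 to PT8 and PT1 to PHO2 overlapped in both lines, and PT8 to PT4 overlapped in S13 and not in S3. The ratio of PT1 to PT4 in counts per kb was 1.61 and 0.755 in the S13 controls and 10.2, 33.3 and 6.55 under salt. It was 2.03 and 1.31 in the S3 controls and 7.52, 18.6 and 19.8 under salt. Salt and control did not overlap in either line, with 11.8-fold and 8.63-fold between geometric means. The pair sets the gene called higher in S13 against the gene called lower there, so separation in S13 is built into the choice. In S3 the level of PT4 itself overlapped, and the reads of PT4 cannot be assigned to 1 strand. The ratio of SPX1 to PHR2, a target and its activator, was 0.698 and 0.609 in the S13 controls and 0.622, 0.925 and 0.644 under salt, with overlap. In S3 it was 0.556 and 0.628 in the controls and 0.952, 1.44 and 0.970 under salt, with none. The ratio of PHR2 to PHO2 was 5.95 and 2.34 in the S13 controls and 1.19, 1.75 and 1.04 under salt, and the S3 libraries overlapped, with 2.98 and 1.55 against 1.299, 1.70 and 0.903.

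**Figure D4:**
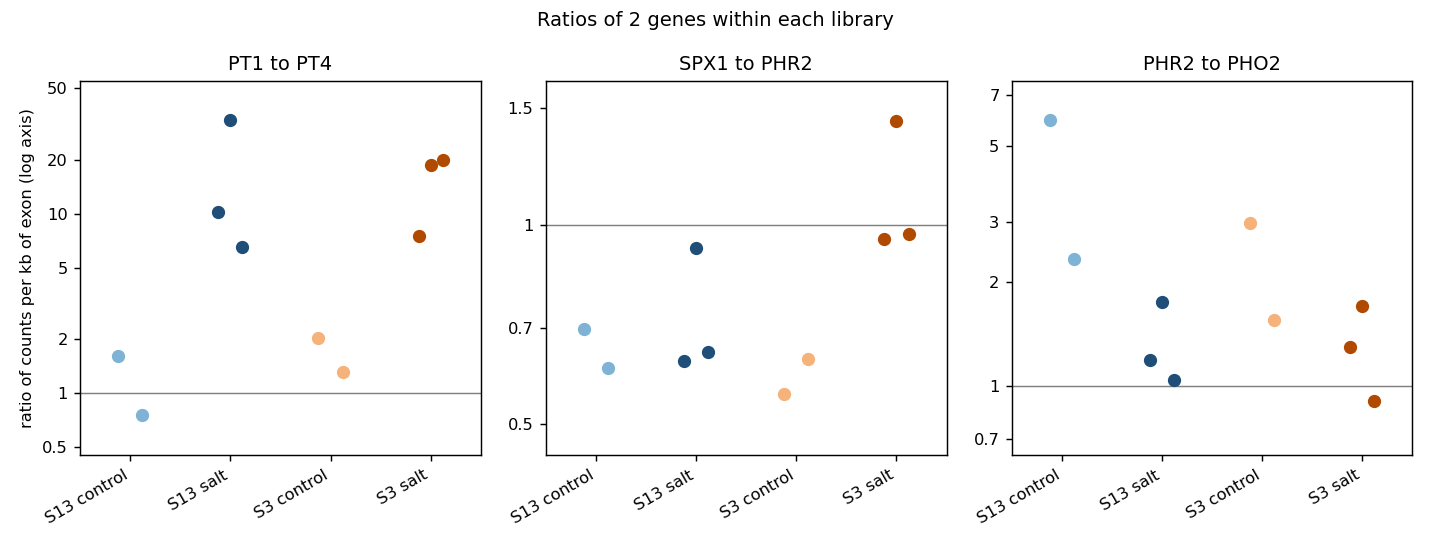
Ratio of the counts per kb of exon of PT1 to PT4, SPX1 to PHR2 and PHR2 to PHO2 within each library (points, log axes, grey line at 1) for the 4 groups. PT1 to PT4 is at most 2.03 in the controls and at least 6.55 under salt, and SPX1 to PHR2 is at least 0.952 in the S3 salt libraries and at most 0.628 in the S3 controls.

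Between the lines no phosphate gene was called. Without salt, 0 of 9 passed in edgeR, where 1.42% of all genes did, and with salt 0 of 9, where 3.57% did. DESeq2 and limma-voom also called 0 of them in both comparisons. Of all genes, DESeq2 called 808 of 31746 without salt and 1833 of 30381 with salt, and limma-voom 524 and 947 of 28189. An unadjusted p under 0.05 in edgeR was found for 0 of the 9, against 2467 of the 28189 tested genes without salt and 4424 with salt. The levels did not overlap between S13 and S3 controls for PT4, SPX1 and PHR2, which were higher in S13 by 0.93 ± 0.50, 0.64 ± 0.39 and 0.49 ± 0.27 on the log2 scale (SE), and for SPX2, which had a log2 difference of -0.87 ± 0.48. Their adjusted p-values were 0.691, 0.768, 0.707 and 0.709. These are 4 of 9 genes, and 47% of all tested genes had no overlap between the control groups. With salt 0 of 9 were free of overlap, against 17.5% of all genes. The log2 difference of PT8 there was -1.32 (95% interval -3.01 to 0.38, adjusted p = 0.447), and with 1 library left out it ran from -2.38, without the first S13 salt library, to -0.51, without the third S3 salt library.

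The difference of the salt responses was called for 0 of the 9 genes and 0% of all genes in edgeR, and limma-voom and DESeq2 called 0 of the 9 and DESeq2 138 of all genes. At an unadjusted p under 0.05 there was 1 phosphate gene, SPX1, and 2435 of all genes. The 95% interval of this difference was widest for PT8, from -3.001 to 2.29, and narrowest for PHR2, from -1.17 to 0.37.

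Ordered by group mean, S3 salt had the highest level of PT1, PT2, PT6, PT8, PHO1;2 and SPX1. S13 salt came next for all of these except SPX1, and its libraries overlapped those of S3 salt in each case. For PT1 and PT2 the S13 salt libraries lay above those of the next group, the S13 controls, which overlapped the S3 controls. For PT4 and PHR2 the order began with S13 controls, whose libraries stood above those of S3 controls, and the other 3 groups overlapped as neighbours. SPX2 was highest in S3 controls and PHO2 in S13 salt, with overlap between all neighbouring groups. Per kb of exon, PHR2 and SPX1 had the highest means in the controls of both lines, at 20.02 and 13.1 CPM per kb in S13 and 14.3 and 8.45 in S3. PHR2 stood above 81.1% of all tested genes in S13 controls, and PT1 went from above 44.2% there to above 71.3% in S13 salt, and from 35.7% to 74.3% in S3.

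Of the 10 genes, 6 share exon bases with a gene annotated on the opposite strand, and counts made without regard to strand cannot tell the partners apart. PT1, PT6, PHR2 and PHO2 share none. PT4 shares 44.5% of its exon bases with its partner, all of whose bases lie inside PT4, and the partner's count was 95.1% to 100% of that of PT4 in every library. Nearly all reads counted for PT4 therefore overlapped that stretch, on whichever strand. For PT8, 49.3% of the bases were shared and the partner had 84.7% to 95.4% of the count, and for PT2 84.9% and 78.8% to 100%. The partner of PT2 was itself called higher in S3 (log2 fold change 2.09, adjusted p = 0.0198, edgeR), and that of PT4 was at -1.33 in S13 (adjusted p = 0.0501). SPX2 shared 50.8% and its partner had 70.1% to 90.9%, and SPX1 shared 35.1% and its partner had 38.5% to 59.9%.

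PHO1;2 was unlike these. Its partner covers 39.9% of its exon bases and had 11.5% to 40% of its count, so that most reads of PHO1;2 lay outside the partner in each library. Rice is known to make an antisense transcript from this locus.

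**Figure D5:**
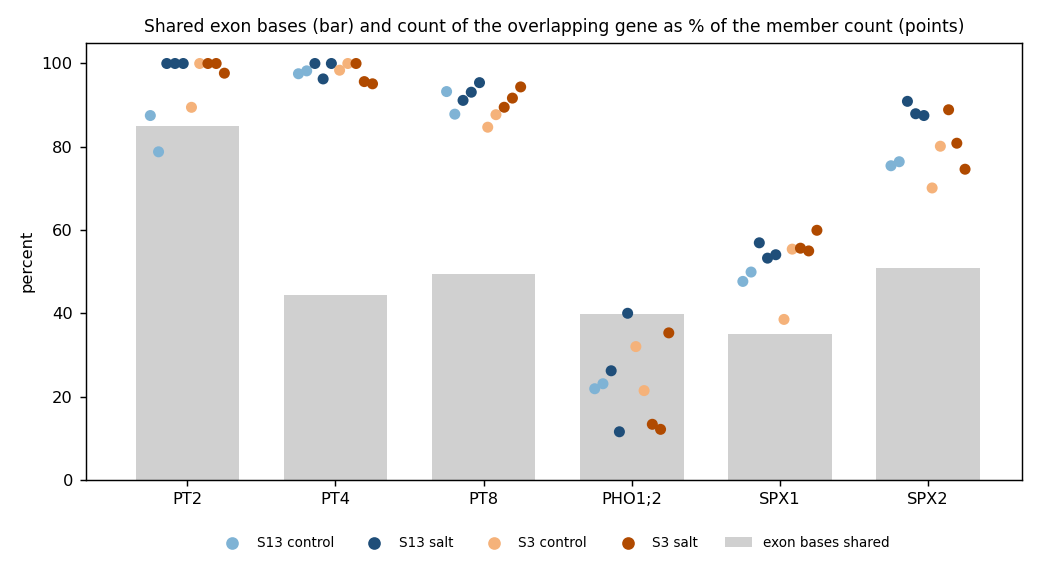
For the 6 genes that share exon bases with a gene on the opposite strand, the percent of their exon bases that is shared (grey bars) and the partner's count as a percent of the gene's own count in each of the 10 libraries (points, coloured by group). For PT4 the points lie at 95.1% to 100% above a bar of 44.5%, and for PHO1;2 they run from 11.5% to 40%, 9 of the 10 below its bar of 39.9%.

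A further 27 identifiers placed by general knowledge in rice phosphate uptake, export, sensing and starvation responses were counted together, since no source here pairs them with names. Of these, 20 passed the filter. In S13, 7 of 20 were called higher and 3 lower under salt, where 12.8% and 14.2% of all genes were. In S3, 3 were called higher and 2 lower, against 14.4% and 18.4%. With library totals the numbers were 2 higher and 8 lower in S13, against 4.88% and 35.5%, and 2 higher and 7 lower in S3, against 5.8% and 36.9%, so the balance of directions followed the scaling. Their median log2 fold change was -0.19 in S13 and 0.35 in S3, and -0.92 and -0.38 with library totals. Between the lines 1 of 20 was called without salt and 0 with salt.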

How the data were processed

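The authors deposited raw read counts per gene for 10 libraries, with exon positions and lengths, per the file headers. The submitters' processing notes name FastQC, Trimmomatic, HISAT2, featureCounts, DESeq2 and the build IRGSP-1.0. Their versions, the strand setting and the treatment of multiply mapped reads: not given in the sources used here. Reads shared by close PT paralogs are therefore uncertain. Strand was checked on 112 opposite-strand gene pairs overlapping over 90% or more of both genes, with a mean count of 100 or more. Counts matched within 10% in 112, so reads in overlaps were counted for both genes.

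Groups came from the sample titles. In R 4.3.3 with edgeR 4.0.16, filterByExpr left 28189 genes. All 10 libraries entered one quasi-likelihood fit on TMM-scaled counts, with a mean for each of the 4 groups and without a replicate block. Genes with a Benjamini-Hochberg adjusted p under 0.05 over all tested genes were called. The SE is the absolute log2 fold change over the square root of F, and 95% intervals use the model's degrees of freedom. The fit was also run on simulated counts in which few genes changed. That setting differs from these data and does not bear on the scaling between salt and control libraries. DESeq2 1.42.0 and limma 3.58.1 were alternatives. No replicates were merged, since chi-square over degrees of freedom between them was 36.9 to 224. Floors cover counting error only.

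All 10 genes of the list are named, and further identifiers are limited to the nearest in pattern to SPX1 and to PHO1;2. The genes, the further list and the settings were chosen with earlier results of these data known. No sequences were used, and a planned search of promoters for the PHR2 binding motif was not run.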

Additional observations from a re-analysis of the deposited data

How the results depend on the processing

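The number of phosphate genes called for salt in S13 was 2 in the main fit. It was 3 with library totals (PT4, SPX1 and PHR2, without PT1), where 11379 of 28189 genes were called. With a stricter filter asking for 5 CPM in 2 libraries it was 1 (PT4), and 6003 of 18897 genes were called. With the compared groups only it was 1 (PT1), and 5367 of 26854 genes were called. With 1 salt library left out it was 0 to 2. In S3, again 2 in the main fit, it was 4 with library totals, where 12043 of 28189 genes were called. With the stricter filter it was 1 (PT1, where PT2 was not among the 6 genes tested), and 7415 of 18897 genes were called. It was 1 to 3 with 1 salt library left out. Fits without a control leave 1 library in a group, and the calls that ended there are given above. With 1 salt library left out, the calls over all genes were 6016 to 7748 in S13 and 5965 to 11131 in S3. The fit with a replicate block called 1 in S13 (PT4) and 3 in S3 (PT1, PT2 and SPX1), and 6110 and 8372 of all genes against 7627 and 9237 without it. Whether the replicate numbers pair the libraries cannot be told from the counts. Of 13 same-number pairs 1 had deviations correlated above 0.1 (r from -0.14 to 0.20). The pairs between S13 and S3 controls share 1 value (r = 0.051), because deviations from a mean of 2 libraries mirror each other. Of 6 salt libraries 2 correlated best with their own number, each with 3 candidates, so few libraries bear on the question. DESeq2 size factors, DESeq2, limma-voom, no filter and 1 gene per overlapping set left these 2 counts at 2. The 3 other comparisons had 0 calls under every alternative.

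Of 831 single-gene values under alternatives, 772 kept direction and side of the threshold, 25 no longer passed, 7 passed newly and 27 changed sign, all of these uncalled in the main fit. With library totals SPX2 in S13 was at -0.67, PHO2 in S3 at -0.0745 and PHO2 between salt libraries at -0.0383. With 1 library left out, the S13 salt response of SPX2 ran from -0.21 to 0.46. Differences between controls (log2, S13 minus S3) ran from -0.45 to 1.16 for PT1, -0.27 to 0.77 for PT2, -1.62 to 0.31 for PT8, -1.08 to 0.21 for PHO1;2 and -0.998 to 0.32 for PHO2. Between salt libraries they ran from -0.66 to 0.33 for PT1, -0.081 to 0.51 for PT4, -0.053 to 0.22 for PHR2 and -0.17 to 0.15 for PHO2. Differences of the responses ran from -1.41 to 0.21 for PT1, -1.62 to 0.45 for PT8, -0.84 to 0.45 for PHO1;2 and -0.29 to 1.02 for PHO2. The cause of these changes was not tested. An alternative motif could not be run without promoter sequences. Depth limits PT6 and PHO1;2, with at most 7 and 45 counts in a library.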

Other observations

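SPX1 and SPX2, the related sensors, did not keep a fixed proportion. The ratio of their counts per kb was 5.52 to 10.8 in the S13 controls and 4.04 to 7.51 in S13 salt, with overlap. In S3 it was 2.26 to 3.38 in the controls and 4.599 to 9.13 under salt, without overlap, a 2.34-fold change between geometric means.

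Likeness to SPX1 and PHO1;2 was ranked over 23140 and 23141 other genes with a mean of at least 1 CPM, by Pearson's r of log2 CPM over the 10 libraries. The libraries fall into 4 groups and share their scaling, so r is a description. The nearest to SPX1 was Os06g0140900 (chromosome 6, 2151949 to 2152584), with r = 0.968 over all libraries and 0.942 after group means were removed. Its mean level was 30.3 CPM in S13 controls, 23.6 in S13 salt, 16.2 in S3 controls and 35.6 in S3 salt. Its log2 fold change was -0.36 in S13 and 1.14 in S3, and neither passed in edgeR (adjusted p = 0.606 and 0.109). That these signs match those of SPX1 follows from its choice by r over the same libraries. The nearest to PHO1;2 was Os07g0583700 (chromosome 7, 23654137 to 23659609), with r = 0.959, although its group means ranged only from 49.5 to 57.1 CPM, so the likeness lay within groups (r = 0.956 there). Among the 9 tested genes themselves, the most alike pair was PT8 and PHO1;2 (r = 0.709), followed by the neighbours PT1 and PT2 (r = 0.669), and the least alike was PT2 and PHR2 (r = -0.62).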
